A study of Mus musculus with 8 samples.

Results

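The collagen genes of the mouse were taken as every gene whose symbol reads Col, a number, a and a number, which gave 44 genes of the 27179 in the expression table. C2C12 is an immortalized mouse myoblast line that can be kept dividing or made to differentiate by serum withdrawal. In growth medium (GM) the cells were sampled at 50% confluence in high glucose DMEM with 10% fetal bovine serum. In the other state (3d DM) they had passed 90% confluence and had then spent 3 days in the same basal medium with 2% horse serum. All cultures were grown on dishes coated with rat tail collagen of type I, so an outside collagen was present in both states. Each state gave 2 input mRNA libraries and 2 libraries of mRNA fragments immunoprecipitated with an antibody to N6-methyladenosine (m6A), 8 libraries in all. The labels do not say whether the replicates came from separate cultures, so p-values measure only the spread between these samples. In the main fit that spread was taken from all genes of like intensity and not from the replicates of each gene.

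Collagens are secreted or membrane proteins made of chains wound into a triple helix. Each helical stretch of a chain is a run of Gly-X-Y triplets, in which X and Y are often proline and hydroxyproline. Fibril-forming collagens give the matrix tensile strength, type IV makes the sheet of the basement membrane, and type VI makes beaded filaments beside it. In skeletal muscle these matrices surround each fibre, and most of their collagen is credited to fibroblasts rather than to muscle cells. The members were grouped by these structural classes.

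The input values are normalized abundances with no read counts beside them, so the depth behind each value is unknown. Over 2171 genes compared, 47.4% of the value pairs of the 2 GM libraries recurred exactly, and a larger share in 3d DM. For pairs of 1 GM and 1 3d DM library the share was 0.461%. Col22a1, Col25a1, Col26a1, Col4a3 and Col6a4 all shared the GM pair 1.06 and 0.00104. The reason for this recurrence, and its part in the tests between states, was not tested. Testing was limited to genes that reached 2 cpm, which stood at 25.1 in these columns, in 2 or more of the 4 input libraries. Of the 44 collagens 23 passed and 21 did not. The states were marked by the muscle genes, with the summed level of 5 myotube markers (Myog, Myh3, Ckm, Mymk and Acta1) at 4517 and 1052 in the GM libraries and at 81934 and 119792 in the 3d DM libraries. The first GM library therefore stood above the second in these markers. Among collagens past the minimum in every library, Col3a1, Col6a1 and Col6a2 were over 1.5-fold higher in the first GM library than in the second. Col6a3 (1813 against 3300), Col7a1 (58.6 against 116) and Col8a1 (459 against 777) were over 1.5-fold lower in the first. Mki67, a marker of dividing cells, was higher in GM, with 3586 and 3659 against 446 and 760. Markers of endothelial cells (3 genes) summed to at most 1.5 in any library and those of adipocytes (3 genes) were listed at 0. Immune markers (3 genes) summed to between 10.7 and 26.4, nearly all of it Cd68. Of 5 fibroblast or tendon markers, Tcf21 was listed at 0 and Tnmd was at or near 0 throughout, while Pdgfra lay between 36.2 and 97.0 and Scx was higher in 3d DM (log2 fold change -1.16, adjusted p = 0.0373). Mkx, of the same list, lay between 4.01 and 8.35. Of 5 cartilage or bone markers, Acan and Ibsp were listed at 0 and Sox9 was higher in GM (1.37, adjusted p = 0.0138). Bglap lay between 1.01 and 8.55. Runx2 read 564 and 671 in GM against 233 and 335 in 3d DM and was not called (1.14, limma adjusted p = 0.063). The part of these cell types in the collagen values was not tested. In bulk RNA, fewer cells of a type and less RNA per cell cannot be told apart.

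Col3a1, Col5a2 and Col1a2 were the 3 highest collagens per kb of exon in each of the 4 libraries. Per kb of exon, the highest mean values over the 4 libraries belonged to Col3a1 (1565), Col5a2 (948), Col1a2 (724) and Col5a1 (401), followed by Col4a1 (271), Col4a2 (257), Col18a1 (238) and Col6a3 (151). In GM, Col5a1 (226 and 280) lay below Col4a1 (269 and 390), Col4a2 (250.0 and 330.3) and Col18a1 (263 and 297), and in 3d DM it lay above them. The first 4 of these genes together made up 73.3% and 62.7% of the summed collagen value per kb in the GM libraries and 69.9% and 71.4% in the 3d DM libraries. Col1a1, which codes for the major chain of type I collagen, stood well below them in GM, where it made up 0.455% and 0.561% of the collagen value per kb, against 4.54% and 3.70% in 3d DM.

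**Figure D1:**
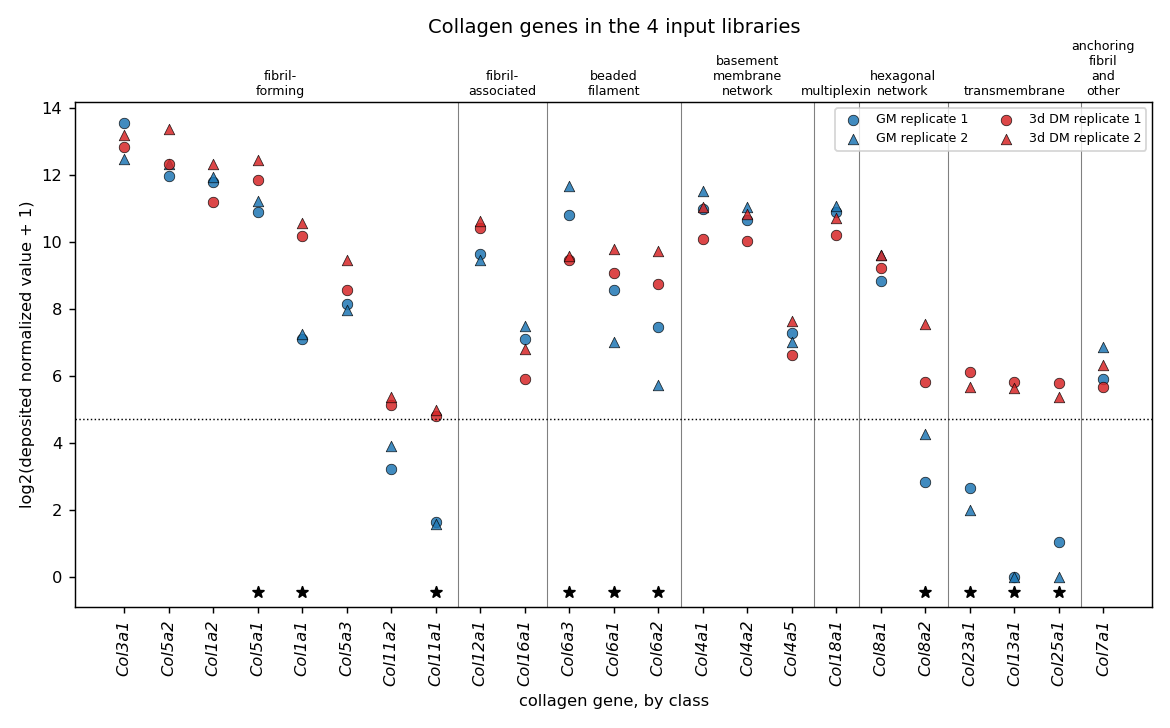
Log2(deposited value + 1) of the 23 tested collagen genes in the 2 GM (blue) and 2 3d DM (red) input libraries, ordered by class and then by mean value per kb of exon. Stars mark an adjusted p under 0.05 and the dotted line marks the minimum of the filter. Col1a1, Col6a1 and Col6a2 lie higher in both 3d DM libraries, Col6a3 lies lower, and 6 genes lie under the line in both GM libraries.

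Of the 23 tested collagens 9 were called higher in 3d DM, and Col6a3 alone was called higher in GM. In fold changes given as GM minus 3d DM on the log2(value + 1) scale, 9 collagens passed an adjusted p of 0.05 with a negative value and 1 with a positive value, while 7.01% of all the 11406 genes tested were called higher in 3d DM and 9.96% higher in GM (limma, Benjamini-Hochberg over all genes), 17.0% together. The 2 states did not overlap in 16 of the 23 collagens, 6 of which had passed the filter through 3d DM only, and in 53.8% of all genes tested. Of the 9 called higher in 3d DM, 5 (Col8a2, Col11a1, Col13a1, Col23a1 and Col25a1) had passed the filter through 3d DM only, so their direction was fixed by the filter. The remaining 4 (Col1a1, Col5a1, Col6a1 and Col6a2) were past the minimum in all 4 libraries. Among the 17 collagens that reached the minimum in every library, a separate fit called 3 higher in 3d DM and 1 higher in GM, against 4.13% and 8.11% of the 10212 genes tested there, and Col5a1 was no longer called (adjusted p = 0.0562).

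The columns share a fixed total, and 1 entry held 24.4% to 41.3% of it. Rescaling the libraries by the median of ratios lowered the median difference of all genes by 0.21 (log2, GM minus 3d DM). Relative to that shift all 10 calls remained and Col5a3, Col11a2 and Col12a1 were also called higher in 3d DM, giving 12 against 1 (background 12.1% and 11.8%), or 13 called in all beside 23.8% of all genes. Of these 12, 6 (Col8a2, Col11a1, Col11a2, Col13a1, Col23a1 and Col25a1) had passed the filter through 3d DM only, so their direction was fixed by the filter. In the deposited values the standard error followed the trend with intensity across all genes rather than the replicate spread of each gene. Without the second GM library, the called collagens past the minimum in every library differed by -3.28 (Col1a1), -1.25 (Col5a1) and -0.88 (Col6a1). Col6a2 differed by -1.78 and Col6a3 by 1.30 in that fit. Leaving out the first 3d DM library left Col1a1 as the only collagen called, and leaving out the second left Col1a1, Col13a1 and Col25a1. Over all genes the share called fell from 17.0% to 7.66%, 1.27% and 5.93% in these 3 fits.

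Among the 11 fibril-forming genes, 8 were tested and 3 were called higher in 3d DM. Col1a1 (chromosome 11, 94936224 to 94953042, GRCm38) had values of 137 and 152 in GM against 1155 and 1533 in 3d DM. The 3d DM values lay 9.33-fold above the GM values and the states were far apart (log2 fold change -3.20 ± 0.45 SE, n = 2 per state). Its limma adjusted p was 4.74e-11 in the deposited values and 0.000588 after rescaling. Its partner Col1a2, the other chain of type I collagen, read 3565 and 3970 in GM against 2380 and 5216 in 3d DM. The 2 states overlapped for Col1a2 and its difference was 0.09 ± 0.41 (adjusted p = 0.926), which leaves room for changes in either direction. Col3a1, the single chain of type III collagen, also overlapped between the states, with 12206 and 5795 in GM against 7386 and 9453 in 3d DM (0.01 ± 0.40, adjusted p = 0.992). Its higher GM value was that of the library with more myotube marker RNA, and the difference was -0.53 without that library and 0.55 without the other (adjusted p = 0.767 and 0.799).

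Type V collagen regulates the diameter of fibrils of types I and III, and 1 of its 3 genes was called. Col5a1 had 1923 and 2387 in GM against 3699 and 5658 in 3d DM, and it passed the threshold narrowly (-1.09 ± 0.41, adjusted p = 0.046), but not with any 1 library left out (adjusted p from 0.0971 to 0.473). Col5a2 read 4012 and 5128 in GM against 5187 and 10764 in 3d DM and did not pass (-0.72 ± 0.40, adjusted p = 0.253). Col5a3 read 285 and 251 in GM against 382 and 706 in 3d DM (-0.96 ± 0.45, adjusted p = 0.145, and 0.0113 after rescaling). Type XI collagen is the corresponding regulator in cartilage, and both of its own chains were low. Col11a1 read 2.09 and 2.01 in GM against 26.7 and 30.9 in 3d DM (-3.29 ± 0.79, adjusted p = 0.000439). Col11a2 read 8.29 and 14.0 in GM against 34.4 and 40.5 in 3d DM (-1.70 ± 0.67, adjusted p = 0.0625). Both genes were under the minimum in GM and above it in 3d DM.

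The 3 chains of type VI collagen moved apart. Col6a1 and Col6a2 lie next to each other on chromosome 10 (76708792 to 76726044 and 76595756 to 76623630), and Col6a3 lies on chromosome 1 (90766860 to 90844001). Col6a1 read 376 and 129 in GM against 541 and 881 in 3d DM (-1.64 ± 0.45, adjusted p = 0.00278). Col6a2 read 176 and 52.2 in GM against 431 and 854 in 3d DM (-2.65 ± 0.47, adjusted p = 3.68e-07). For both genes the states did not overlap, and the GM library with more myotube marker RNA held the higher of the 2 GM values. The part of that difference between the GM libraries in these results was not tested. Without the second GM library the change was -0.88 for Col6a1 and -1.78 for Col6a2, and without the first -2.41 and -3.51. Without the first 3d DM library it was -1.99 and -3.14, and without the second -1.29 and -2.15. Neither gene was called without the second GM library or without either 3d DM library. Col6a3, the longest of the chains, went the other way, with 1813 and 3300 in GM against 700.2 and 769 in 3d DM. Between the GM libraries Col6a3 was lower in the one with more myotube marker RNA. It was 3.48-fold higher in GM (1.74 ± 0.42, adjusted p = 0.000504), and it was not called when the second GM library was left out (1.30, adjusted p = 0.36) or either 3d DM library (adjusted p = 0.127 and 0.0802). The genes whose log2 values over the 4 libraries lay nearest to those of Col6a3 were Ahcy, Xpo1 and Nop56, at a root mean square difference of 0.25, 0.26 and 0.31.

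Because partner chains are measured in the same library, their ratio does not depend on how the libraries were scaled. These ratios were chosen after the values were seen, and 2 libraries against 2 cannot give an exact permutation p under 0.333, which every pair here reached. Per kb of exon, Col6a3 exceeded Col6a1 1.76-fold and 9.32-fold in the GM libraries and stood at 0.473 and 0.319 of it in the 3d DM libraries. Col6a1 exceeded Col6a2 3.23-fold and 3.75-fold in GM and 1.90-fold and 1.56-fold in 3d DM. The ratio of Col6a3 to Col6a2 was 5.70 and 35.0 in GM against 0.898 and 0.498 in 3d DM. Type VI chains join in equal numbers in the protein, and the transcript of Col6a3 changed from the most abundant of the 3 per kb in both GM libraries to the least abundant in both 3d DM libraries. In type I collagen, which holds more of the Col1a1 chain than of the Col1a2 chain, Col1a1 stood at 0.0337 and 0.0336 of Col1a2 in GM and at 0.428 and 0.259 in 3d DM. The ratio of Col5a1 to Col5a2 differed less, with 0.372 and 0.362 in GM against 0.554 and 0.408 in 3d DM.

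None of the 3 tested type IV genes was called. Col4a1 and Col4a2 lie head to head on chromosome 8 (11198423 to 11312889 and 11312805 to 11449287) and share a promoter region. Col4a1 read 2025 and 2934 in GM against 1097 and 2113 in 3d DM (0.68 ± 0.42, adjusted p = 0.311). Col4a2 read 1613 and 2130 in GM against 1043 and 1851 in 3d DM (0.42 ± 0.42, adjusted p = 0.606). Their ratio per kb was 1.08 and 1.18 in GM against 0.902 and 0.978 in 3d DM, so the states did not overlap in it. Col4a5, a chain of a different type IV trimer, lay between 98.2 and 198 with overlapping states, and Col4a3, Col4a4 and Col4a6 were too low to test. Col18a1, a basement membrane proteoglycan core and the source of endostatin, read 1912 and 2158 in GM against 1179 and 1675 in 3d DM (0.53 ± 0.42, adjusted p = 0.472).

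**Figure D2:**
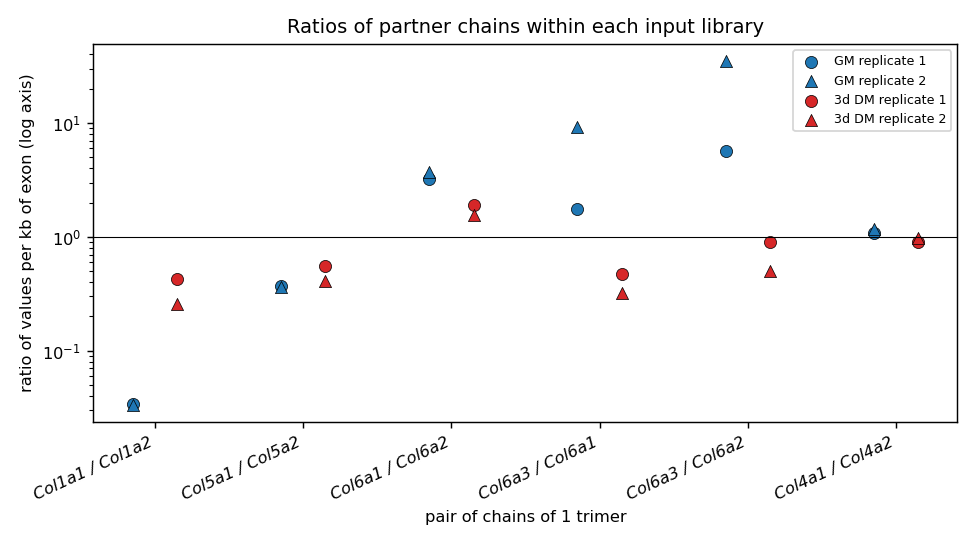
Ratio of the values per kb of exon of 6 pairs of chains that share a trimer, on a log axis, in each of the 4 input libraries (GM blue, 3d DM red). The states do not overlap in any of the 6 pairs, and the distance between them is widest for the ratios with Col6a3 and for Col1a1/Col1a2 and least for Col4a1/Col4a2, with 1.08 and 1.18 in GM against 0.902 and 0.978 in 3d DM.

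Transmembrane collagens were low in both states. These proteins sit in the plasma membrane with their helices outside the cell, and 3 of the 4 were tested and called. Col13a1, found at neuromuscular junctions and cell adhesions, was listed at 0 in both GM libraries and read 55.6 and 49.1 in 3d DM (adjusted p = 4.01e-10). Col25a1, needed for motor axons to innervate muscle, read 1.06 and 0.00104 in GM against 54.1 and 40 in 3d DM (adjusted p = 2.29e-08). Col23a1 read 5.28 and 3.01 in GM against 68.1 and 50.3 in 3d DM (-3.57 ± 0.70, adjusted p = 6.54e-06). All 3 passed the filter through 3d DM only, so no fold is given against the listed 0 of Col13a1 or the near 0 of Col25a1. Col17a1, a hemidesmosome protein, passed the minimum in 1 library only and was not tested. The profile nearest to that of Col13a1 over the 4 libraries was that of Lrtm1 (root mean square log2 difference 0.07), then those of Hectd2os (0.30) and Isx (0.32), all listed at 0 in GM.

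Of the hexagonal network collagens, which build lattices under endothelia and in growth plates, Col8a2 was higher in 3d DM. It read 6.12 and 18 in GM against 55.4 and 188 in 3d DM, where the 2 replicates differed widely (-3.15 ± 0.61, adjusted p = 5.11e-06). Col8a1 was higher in level but overlapped between the states, with 459 and 777 in GM against 597 and 787 in 3d DM (-0.20 ± 0.44, adjusted p = 0.851). Col12a1, which coats fibrils and links them to other matrix proteins, read 806 and 704 in GM against 1375 and 1596 in 3d DM. It did not pass in the deposited values (-0.97 ± 0.43, adjusted p = 0.106) and passed after rescaling (-1.18 ± 0.19, adjusted p = 0.00784). Col16a1, also fibril-associated, read 138 and 179 in GM against 59.6 and 111 in 3d DM. The states did not overlap for Col16a1, and it was not called (0.94 ± 0.51, limma adjusted p = 0.224). Col7a1, the anchoring fibril of skin, lay between 50.3 and 116 with overlapping states and was not called.

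The 21 collagens that were not tested had no value above 29.5 in any library. They were Col2a1, Col24a1 and Col27a1 among the fibril-forming genes, the cartilage collagens Col9a1, Col9a2, Col9a3 and Col10a1, and the fibril-associated Col14a1, Col19a1, Col20a1 and Col22a1. Col4a3, Col4a4, Col4a6, Col6a4, Col6a5, Col6a6, Col15a1, Col17a1, Col26a1 and Col28a1 completed the list, and 4 of the 21 (Col6a5, Col6a6, Col9a1 and Col9a2) were listed at 0 in all 4 libraries. Col2a1, which defines cartilage, was at 1.00 or less.

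Collagen chains need hydroxylases, chaperones, export factors, propeptidases and cross-linking enzymes, and a list of 69 such genes was read from the same fit. Of the 69 genes 49 were tested. Of these, 11 were called higher in 3d DM and 3 higher in GM, against the same background of 7.01% and 9.96% of all genes. The median difference over the tested genes was -0.27, beside 0.22 over all genes tested. After rescaling, 15 were called higher in 3d DM and 6 in GM, beside 12.1% and 11.8% of all genes. In the same order, the pathway genes called numbered 0 and 0 without the first 3d DM library, 2 and 2 without the second, 8 and 1 without the first GM library and 5 and 1 without the second GM library.

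**Figure D3:**
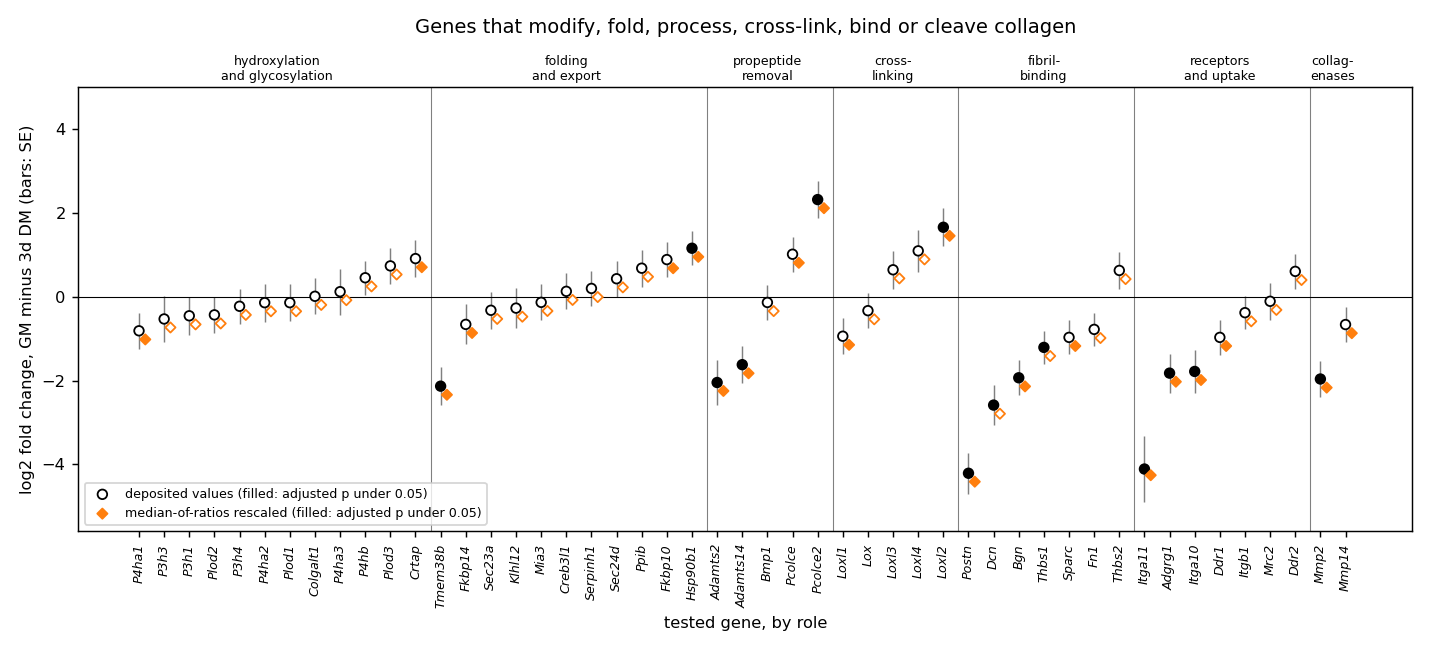
Log2 fold change (GM minus 3d DM, bars of 1 SE) of the 49 tested pathway genes by role, from the deposited values (circles) and after median-of-ratios rescaling (diamonds), filled where the adjusted p was under 0.05. No enzyme of hydroxylation is filled in the deposited values, and Postn, Itga11, Dcn and Tmem38b lie lowest, that is highest in 3d DM.

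The genes that modify and fold the chain gave few calls. None of the 12 tested genes for prolyl and lysyl hydroxylation and glycosylation was called, and after rescaling P4ha1, a prolyl 4-hydroxylase subunit, was called higher in 3d DM and Crtap, part of the prolyl 3-hydroxylase complex, higher in GM (both named after their values were seen). Of 11 tested genes for folding and export, Hsp90b1, an endoplasmic reticulum chaperone, was higher in GM (1.16 ± 0.40, adjusted p = 0.0277). Its values were 11149 and 9891 in GM against 3410 and 6489 in 3d DM. Tmem38b, an endoplasmic reticulum cation channel needed for collagen modification, was higher in 3d DM, with 348 and 117 against 756 and 1053 (-2.13 ± 0.45, adjusted p = 3.26e-05). Serpinh1, the collagen-specific chaperone, was not called.

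Among 5 tested genes for propeptide removal, the proteases and an enhancer went in different directions. Adamts2, which cuts the amino propeptide, read 27.2 and 38.1 in GM against 135 and 137 in 3d DM (-2.05 ± 0.54, adjusted p = 0.00184). Adamts14, a protease of the same group, read 204 and 327 in GM against 661 and 959 in 3d DM (-1.62 ± 0.45, adjusted p = 0.00285). Pcolce2, an enhancer of carboxy propeptide removal, was higher in GM, with 776 and 1093 against 168 and 201 (2.32 ± 0.45, adjusted p = 4.87e-06). Of the 5 lysyl oxidase genes, which cross-link the finished chains, Loxl2 was higher in GM, with 538 and 582 against 154 and 203 (1.66 ± 0.46, adjusted p = 0.0029). Lox itself was not called.

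Matrix proteins that bind collagen fibrils and the receptors for collagen were higher in 3d DM where they were called. Of 7 tested fibril-binding genes 4 were called (Postn, Bgn, Dcn and Thbs1). Postn, which codes for periostin, read 25 and 55.2 in GM against 592 and 845 in 3d DM (-4.21 ± 0.48, adjusted p = 3.13e-16). Bgn, the proteoglycan biglycan, read 1086 and 1106 in GM against 3824 and 4590 in 3d DM (-1.93 ± 0.41, adjusted p = 5.06e-05). Dcn, the related decorin, read 430 and 17.1 in GM against 409 and 685 in 3d DM, so the states overlapped although it was called (-2.59 ± 0.47, adjusted p = 9.75e-07). Thbs1, the adhesive glycoprotein thrombospondin, read 4388 and 10945 in GM against 13225 and 19404 in 3d DM (-1.21 ± 0.40, adjusted p = 0.019). After rescaling neither Dcn (adjusted p = 0.147) nor Thbs1 (adjusted p = 0.0899) was called. Among 7 tested receptor genes, the collagen-binding integrins Itga11 (1.02 and 2.01 against 40.6 and 42.6) and Itga10 (71.7 and 33.1 against 166 and 175) were higher in 3d DM, Itga11 having passed the filter through that state only. Adgrg1, a receptor of collagen III, was also higher there, with 161 and 112 against 292 and 783 (-1.82 ± 0.47, adjusted p = 0.00102). Mmp2, a gelatinase, was higher in 3d DM as well, with 921 and 290 against 1660 and 2457 (-1.96 ± 0.43, adjusted p = 6.73e-05). Mmp2, Dcn and Tmem38b were, like Col6a1 and Col6a2, higher in the GM library with more myotube marker RNA, as were Itga10 and Adgrg1. The other pathway genes called higher in 3d DM (Postn, Thbs1, Adamts2, Adamts14, Bgn and Itga11) were lower in that library than in the other GM library. Without the second GM library the difference was -0.30 for Dcn, -1.13 for Mmp2, -1.35 for Tmem38b and -1.24 for Itga10, and none of these was called (adjusted p = 0.954, 0.465, 0.349 and 0.467).

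m6A is the methylated adenosine that the METTL3 complex places at DRACH motifs (D is A, G or T, R is A or G, H is A, C or T), most densely near stop codons. Peaks had been called in each immunoprecipitated library against its own input, and each peak line gives a fold enrichment and a P. Peaks were found in 14 and 13 collagen genes in the GM lists and in 17 and 14 in the 3d DM lists, 18 genes in all. All of them were among the 23 tested genes, of which 60.9% and 56.5% had a peak in GM against 73.9% and 60.9% in 3d DM. The same shares of all tested genes with a symbol were 63.8% and 60.4% in GM against 62.8% and 53.5% in 3d DM. The number of collagen genes with a peak was on average 2 higher in 3d DM, with overlapping lists (exact permutation test, two-sided p = 0.667, where the smallest possible is 0.333). That excess came from Col8a2, Col13a1 and Col23a1, which had passed the expression filter through 3d DM only. Among the collagens past the minimum in every library, 14 and 13 had a peak in GM against 14 and 13 in 3d DM.

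Of the 18 genes 13 carried peaks in every list, and these are drawn in the map along the transcripts. They were Col1a1, Col1a2, Col3a1, Col4a1, Col4a2, Col5a1, Col5a2, Col6a1, Col6a2, Col6a3, Col8a1, Col12a1 and Col18a1. Col8a2 had a peak in each 3d DM list, but not at the same place. It lay at 126312956 to 126313016 on chromosome 4 in the first list and at 126314151 to 126314211 in the second. Col7a1, Col13a1 and Col23a1 had peaks in the first 3d DM list only, and Col4a5 in the first GM list only. Some of these isolated peaks carried a pair of P and fold that recurred in the same list. The fold of 18 of Col23a1 was shared, with the same P, by 48 other genes, the 12.2 of Col4a5 by 123 and the 9.52 of Col7a1 by 17. The Col8a2 folds of 2.89 and 9.19 were shared in this way by 19 and 7 other genes. The fold of 15.7 of Col6a2 in the first GM list was shared by 80 other genes. Such folds do not distinguish 1 gene from another.

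**Figure D4:**
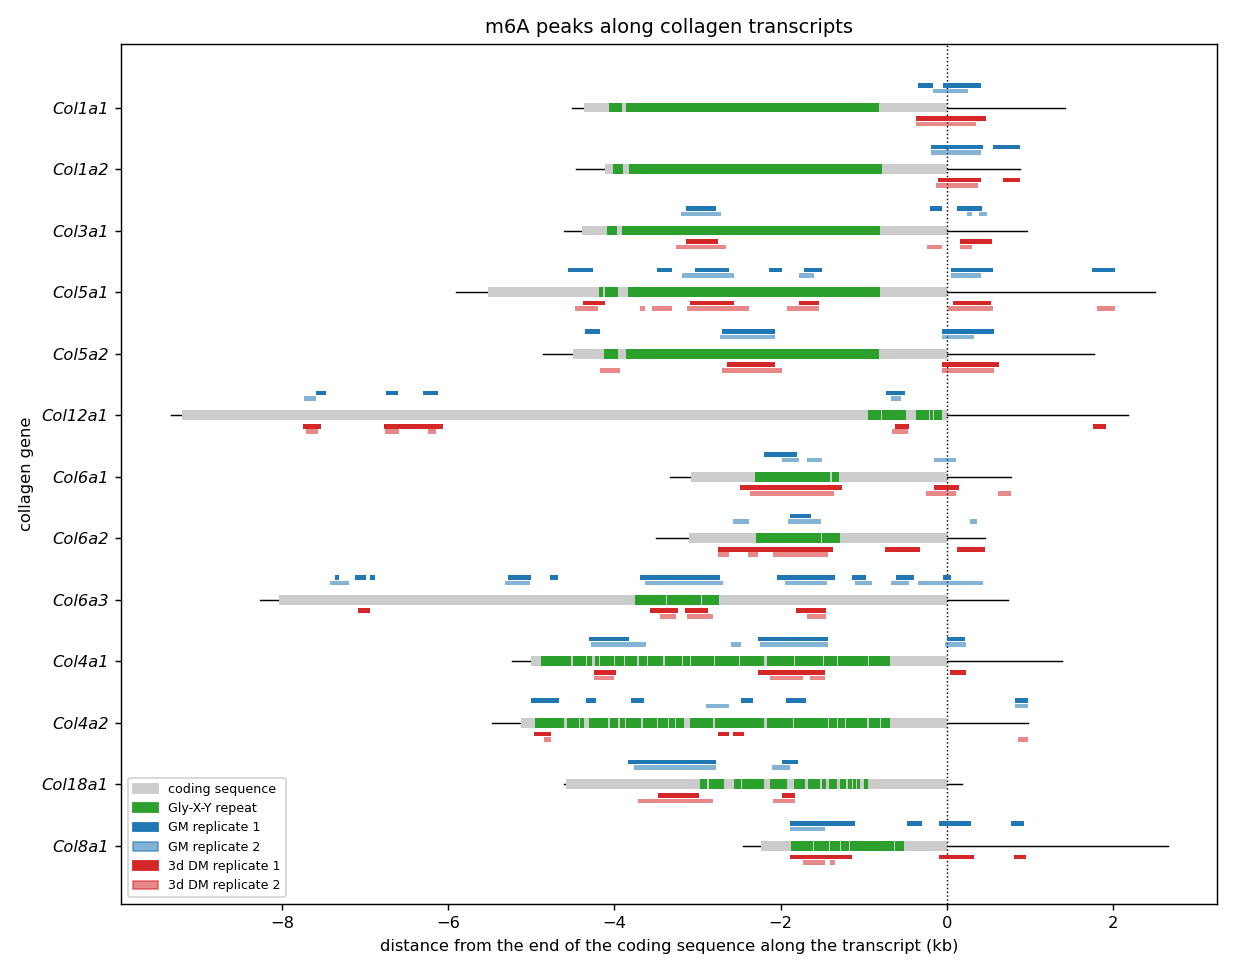
Peaks of the 13 collagen genes found in all 4 lists, drawn by distance from the end of the coding sequence (kb along 1 GENCODE transcript per gene). Blue bars above each transcript are the GM lists and red bars below it the 3d DM lists, the coding sequence is grey and its Gly-X-Y repeats are green. Peaks of Col1a1 and Col1a2 gather at the dotted end of the coding sequence, while those of Col3a1, Col4a1, Col5a1 and Col5a2 also recur inside the Gly-X-Y repeats.

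Collagen peaks lay in coding sequence more often than peaks in general. After lines were merged, the lists held 49 and 34 distinct collagen peaks in GM against 40 and 39 in 3d DM. The share that touched coding sequence by the deposited labels was 85.7%, 85.3%, 77.5% and 84.6% in the 4 lists, beside 70.1%, 69.2%, 66.8% and 68.2% of all distinct peaks. The share that touched a 3′ UTR was 26.5%, 32.4%, 37.5% and 25.6%, beside 53.2%, 57.5%, 53.9% and 54.0%. Peak midpoints within 200 nt of the end of the coding sequence made up 10.5% to 17.6% of the placed collagen peaks and 22.5% to 28.2% of all placed peaks. Collagen transcripts are long, and an even spread over them would put 5.88% to 6.62% of the peaks there, against 11.6% to 13.0% for all genes. Coding sequence made up 8034 of 9001 nt of the Col6a3 transcript, 4584 of 4791 nt in Col18a1 and 2235 of 5108 nt in Col8a1. No even spread was computed for the coding and 3′ UTR shares, so the part of transcript structure in them was not tested. All of these shares are descriptions, since peaks of 1 gene are not independent.

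The coding sequence of collagens differs in structure from that of other genes. The transcripts used had a median of 47 coding exons with a median length of 63 bp, against 9 exons and 129 bp for the other genes in the peak lists. Gly-X-Y runs of at least 5 triplets made up 48.0% to 50.2% of the coding bases of the collagens with peaks, and 58.3% and 61.2% of the coding bases inside peaks in GM against 62.2% and 67.2% in 3d DM. The longest uninterrupted run held 338 triplets in Col1a1, 344 in Col3a1 and 339 in Col5a2, but 87 in Col6a1, 45 in Col6a3 and 60 in Col8a1. A glycine codon GGA followed by a proline codon spells GGACC, which is itself a DRACH match. Of 2467 DRACH matches on the sense strand of the Gly-X-Y coding sequence of the 44 genes, 892 (36.2%) were of this in-frame kind. Their overall density was 25.4 DRACH per kb in Gly-X-Y coding sequence and 22.4 in the rest of the coding sequence, beside 21.2 per kb in the coding sequence of 8635 transcripts.

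Regions of the 4 lists that shared at least 1 exon base on the same strand and gene were joined, which gave 20 collagen regions present in every list. The stretch covered in all 4 lists was mostly Gly-X-Y coding sequence in 12 of them, mostly UTR in 5 and mostly other coding sequence in 3. At least 1 DRACH match lay in 95.0% of the 20 shared stretches and in 94.4% of 5276 shared stretches of other genes, and the density was 26.8 and 24.1 per kb. GGACC made up 27.9% of the DRACH matches in the coding part of the collagen stretches and 6.50% of those in other genes. A match is a description of these letters and not a methylated site.

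The coding parts of several shared stretches are printed because they show how the same motif arises inside and outside the helix. They were read from GRCm38 (mm10) on the strand of the gene, 5′ to 3′, with DRACH matches in capitals, and matches that touch run together. The first 4 lie in Gly-X-Y sequence, from Col8a1 (chr16:57628379-57628648, minus strand, 258 of 270 bases in triplets), Col5a2 (chr1:45394721-45394828, minus strand), Col4a1 (chr8:11218681-11218770, minus strand) and Col3a1 (chr1:45333563-45333661, plus strand).
Col8a1: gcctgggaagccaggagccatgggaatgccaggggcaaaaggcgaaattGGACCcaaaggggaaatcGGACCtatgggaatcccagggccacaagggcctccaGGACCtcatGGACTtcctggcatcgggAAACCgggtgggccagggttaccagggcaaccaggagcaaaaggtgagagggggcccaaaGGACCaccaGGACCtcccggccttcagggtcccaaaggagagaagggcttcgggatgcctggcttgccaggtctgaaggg
Col5a2: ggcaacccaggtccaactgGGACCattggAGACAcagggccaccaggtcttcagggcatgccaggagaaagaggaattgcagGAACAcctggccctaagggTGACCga
Col4a1: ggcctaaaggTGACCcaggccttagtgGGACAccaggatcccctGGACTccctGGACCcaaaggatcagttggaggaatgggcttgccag
Col3a1: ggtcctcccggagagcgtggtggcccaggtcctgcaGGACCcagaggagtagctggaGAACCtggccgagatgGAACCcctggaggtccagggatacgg
Of the 7 DRACH matches in the Col8a1 stretch 5 were GGACC, and Col5a2, Col4a1 and Col3a1 held 1 GGACC each. That of Col5a2 runs over the codons GGG and ACC, so it is not of the in-frame kind described above.

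Outside the helix, the stretches at the end of the coding sequence of Col1a1 (chr11:94951575-94951619, plus strand), Col1a2 (chr6:4540558-4540662, plus strand) and Col5a2 (chr1:45376084-45376149, minus strand) are shown up to and with the stop codon, beside a coding stretch of Col6a3 (chr1:90778807-90779034, minus strand) that holds no Gly-X-Y run.
Col1a1: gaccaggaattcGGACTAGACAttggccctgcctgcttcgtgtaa
Col1a2: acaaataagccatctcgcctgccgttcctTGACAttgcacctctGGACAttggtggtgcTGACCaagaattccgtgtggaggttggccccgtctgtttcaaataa
Col5a2 (stop codon): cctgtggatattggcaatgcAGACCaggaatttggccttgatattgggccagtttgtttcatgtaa
Col6a3: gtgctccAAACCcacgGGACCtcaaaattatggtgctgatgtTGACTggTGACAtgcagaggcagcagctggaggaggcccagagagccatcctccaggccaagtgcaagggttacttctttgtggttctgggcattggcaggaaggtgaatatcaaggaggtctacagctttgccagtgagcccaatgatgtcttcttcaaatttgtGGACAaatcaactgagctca
These 3 stop codon stretches went on into the 3′ UTR, with 255, 374 and 324 UTR bases covered in all 4 lists. No peak of Col1a1 or Col1a2 in any list touched their Gly-X-Y sequence.

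No fold enrichment at a shared region was called different between the states. Of 6055 regions of all genes found in every list 0 were called at an adjusted p of 0.05 (limma, 208 or 3.44% at an unadjusted p under 0.05), and of the 20 collagen regions 0 were called and 1 had an unadjusted p under 0.05. The median log2 difference (GM minus 3d DM) was 0.28 over the 20 regions and 0.11 over all 6055, with a median standard error of 0.47. The stop codon regions of Col1a2 and Col5a2 had the smallest differences of the 20. At the stop codon of Col1a2 the fold enrichment was 5.65 and 3.13 in GM against 4.60 and 3.95 in 3d DM (-0.02 ± 0.44). At the stop codon of Col5a2 it was 5.38 and 4.47 in GM against 5.20 and 4.66 in 3d DM (-0.01 ± 0.43), and in its helix 3.60 and 3.94 against 3.53 and 4.32.

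At Col1a1, whose transcript was higher in 3d DM, the stop codon region had folds of 7.44 and 8.74 in GM against 5.03 and 3.83 in 3d DM. The states did not overlap, and the difference of 0.88 ± 0.47 was not called (adjusted p = 0.996). The widest difference was at a coding region of Col12a1, with 5.69 and 12.5 in GM against 3.85 and 2.97 in 3d DM (1.32 ± 0.50, unadjusted p = 0.0207, adjusted p = 0.996). Its 12.5 was shared with the same P by 102 other genes of that list, and its shared stretch was 9 bp long. The Col8a1 region printed above had folds of 11.7 and 19.8 in GM against 10.6 and 7.24 in 3d DM (0.80 ± 0.62). The type VI genes, whose transcripts moved apart, had shared helix regions with folds of 7.29, 4.85, 4.54 and 5.19 in Col6a1, of 15.7, 6.46, 5.42 and 11.4 in Col6a2 and of 5.05, 6.20, 5.17 and 5.34 in Col6a3 (GM libraries first). Col6a1 also had a stop codon region in the second GM list and both 3d DM lists, with folds of 4.05, 2.60 and 4.78, and none in the first GM list.

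**Figure D5:**
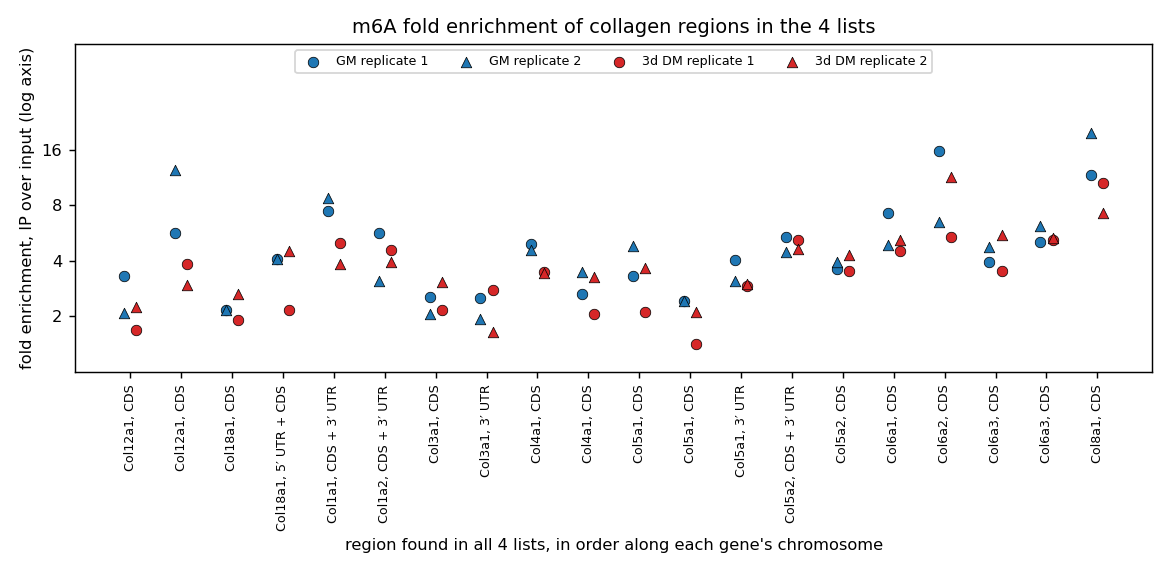
Fold enrichment of immunoprecipitated over input RNA, on a log axis, at the 20 collagen regions found in all 4 lists, with GM in blue and 3d DM in red. Blue and red points overlap in most regions, and the 3 highest values (19.8, 15.7 and 12.5) are GM lists at Col8a1, Col6a2 and Col12a1.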

How the data were processed

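The 8 libraries of C2C12 cells were used, 2 input and 2 immunoprecipitated in each state. Per the study's methods, the authors aligned trimmed reads to mm10 with HISAT2 2.1.0 and called peaks with exomePeak in each sample at P ≤ 0.05. The deposited input table holds normalized signal (trimmed mean of M values) per Entrez gene, with no counts, and 93.0% of its rows were matched to a RefSeq symbol. The deposited peak lists give a fold (ratio) and a p-value per transcript line. Under R 4.3.3, limma 3.58.1 was fitted to the whole table as log2 of the value plus 1, with a trend in the variance, as GM minus 3d DM, over genes at 2 cpm or more of the column total in 2 or more libraries. The study's filter asked for 3 libraries, which is given as an alternative. Peak lines sharing at least 1 exon base were joined, and log2 fold was tested in the same way over regions in all 4 lists. The limma scripts were tested on simulated data. Exon lengths came from RefSeq GRCm38.p6, and coding positions and DRACH matches from 1 GENCODE M21 transcript per gene (the longest coding sequence, complete ones first), found for all 44 collagens. For peaks with several blocks and a GENCODE transcript, inner edges fell on exon edges when starts were counted from 0, so starts are printed with 1 added. Same-numbered libraries of the 2 states correlated at 0.29 in their deviations from the group means. Their titles also share a form, with RNA in those of replicate 1 and a final 2 in those of replicate 2. The labels do not say what this form stands for. The main fit used no block, and a fit with the replicate block is given as an alternative. Named genes were all collagens, with values for those called, those highest per kb and those with peaks, and the called pathway genes with at most 4 per direction and role. The collagen set, the pathway list and the markers were chosen with earlier results of these data known. Alternatives in filter, pseudocount, variance model, scaling, peak threshold, merging and left-out libraries were run.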

Additional observations from a re-analysis of the deposited data

How the results depend on the processing

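The count of collagens higher in 3d DM was 3 when 2 cpm was asked of 3 libraries and again 3 when it was asked of all 4, since 5 called genes were then not tested and Col5a1 missed the threshold (adjusted p = 0.056 and 0.0562). Among all genes, 524 of 10769 and 422 of 10212 were higher in 3d DM under these filters. Leaving out 1 library at a time gave 1 to 8 collagens higher in 3d DM and 0 to 1 higher in GM, and 0 to 8 and 0 to 2 pathway genes. In these fits the lone library is assumed to vary like the other state. Collagens that passed the filter through 3d DM only had their direction fixed by it in these fits as well. The pathway genes higher in GM numbered 6 under each of the 3 rescalings (median of ratios, trimmed mean, total without the largest entry). Of all 11406 genes tested, 1341, 1354 and 1609 were higher in GM under these. With the replicate block 8 collagens and 10 pathway genes were higher in 3d DM and 1 and 2 in GM. Over all 11406 genes tested, that fit called 593 higher in 3d DM and 705 higher in GM, 11.4% together. Col5a1 was lost with the block (limma adjusted p = 0.223), and the same-numbered libraries share only a number and the form of their titles. The difference in collagen genes with a peak (3d DM minus GM, 2) reversed to -2 with folds of at least 4 and to -2 with distinct peaks in place of genes, and it was 0 among collagens past the minimum in every library (a count added after the data were seen). The share of collagen peaks touching coding sequence averaged 90.5% with folds of at least 4, beside 83.3% in all, and that of all genes 72.5% beside 68.6%. With peaks of a single label the averages were 80.0% for collagens and 56.5% for all genes. No setting called a collagen region in fold enrichment. The cause of these changes was not tested beyond the fewer genes or libraries that each setting holds. Without read counts, the depth that limits low genes and single-list peaks is unknown.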
